A study of Homo sapiens with 12 samples.

Results

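Fibrillins, latent transforming growth factor-beta binding proteins (LTBPs) and proteins that assemble with them were examined in H1299 and A549 cells, established human non-small-cell lung cancer lines. The 10 genes, FBN1, FBN2, LTBP1, LTBP2, LTBP3, LTBP4, MFAP2, MFAP5, ELN and HAPLN3, were taken by symbol from a fixed list and are 10 of 26535 features in the deposited tables. The list was drawn up with results of these data known, and FBN2 and HAPLN3 entered it for their lower level with VGF in A549. The A549 values of VGF against empty vector are therefore a description, with no test. Messenger RNA was sequenced from 4 groups of 3 libraries. H1299 cells labelled VGF-OE carried a VGF lentivirus, and H1299 cells labelled WT carried an empty vector lentivirus. A549 cells labelled VGF-OE and A549 cells labelled WT carried the same pair of vectors. VGF encodes a secreted neuroendocrine precursor protein. H1299 cells were grown in RPMI-1640 and A549 cells in DMEM/F12, both with fetal bovine serum, so that line and medium cannot be told apart. The labels name neither the promoter that drives VGF nor whether the cells were pools or clones.

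Fibrillins are large secreted glycoproteins that polymerise into microfibrils, the beaded filaments of the extracellular matrix. LTBPs share the repeat structure of fibrillins, bind microfibrils and, for most of the family, hold latent TGF-beta in the matrix until it is released. In the lung, elastin is laid down on a microfibril scaffold to form the fibres that give the tissue its recoil. HAPLN3 is of another kind, a link protein that joins hyaluronan to proteoglycans.

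Promoter sequence was read from RefSeq (GRCh38.p14) for 8 of the 10 genes, and MFAP5 and ELN are named only. The 250 bases before the start are given for FBN2 and HAPLN3, the genes chosen on their A549 values, and for both starts of LTBP4, the member with the highest level per length. Each is written 5′ to 3′ on the strand of the gene. Capitals mark GGGCGG or its reverse complement CCGCCC, the GC box, in FBN2 and LTBP4, and CAGAC or its reverse complement GTCTG, known as a SMAD-binding element, in HAPLN3.
FBN2 (chr5:128538246-128538495): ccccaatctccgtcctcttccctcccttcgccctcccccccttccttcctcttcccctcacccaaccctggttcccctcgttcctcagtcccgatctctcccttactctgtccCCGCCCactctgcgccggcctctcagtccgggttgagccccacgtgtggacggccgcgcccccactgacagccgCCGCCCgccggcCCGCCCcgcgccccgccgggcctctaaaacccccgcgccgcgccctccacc
HAPLN3 (chr15:88895545-88895794): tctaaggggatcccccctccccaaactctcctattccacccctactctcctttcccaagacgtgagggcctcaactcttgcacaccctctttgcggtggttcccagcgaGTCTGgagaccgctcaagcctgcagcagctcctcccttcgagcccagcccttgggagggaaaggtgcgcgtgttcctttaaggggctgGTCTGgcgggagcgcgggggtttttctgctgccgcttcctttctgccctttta
LTBP4 first start (chr19:40592916-40593165): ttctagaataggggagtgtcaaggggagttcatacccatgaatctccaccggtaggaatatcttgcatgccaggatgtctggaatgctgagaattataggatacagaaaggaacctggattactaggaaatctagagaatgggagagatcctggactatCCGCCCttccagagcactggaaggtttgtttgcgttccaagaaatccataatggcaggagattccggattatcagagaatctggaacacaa
LTBP4 second start (chr19:40601119-40601368): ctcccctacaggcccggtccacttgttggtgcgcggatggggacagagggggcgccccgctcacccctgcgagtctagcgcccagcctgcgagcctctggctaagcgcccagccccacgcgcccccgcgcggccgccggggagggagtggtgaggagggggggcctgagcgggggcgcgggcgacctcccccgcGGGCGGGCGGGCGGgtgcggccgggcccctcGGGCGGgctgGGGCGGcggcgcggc
FBN2 held 3 GC boxes and no CAGAC, whereas HAPLN3 held 2 CAGAC and no GC box. The first LTBP4 start held 1 GC box and 1 CAGAC, and the second held 5 GC boxes, some of which overlap, and no CAGAC. The G and C content was 72.8% in FBN2, 60.4% in HAPLN3, 45.2% at the first LTBP4 start and 81.6% at the second, against a median of 58% over 35116 promoters of that length. Of those promoters, 42.6% held GGGCGG and 38.0% held CAGAC on either strand. TGANTCA, the AP-1 motif, and TATAAA were searched as well, are held by 6.57% and 10.7% of promoters, and occur in none of the 4 sequences on either strand. FBN1, the other fibrillin among the 10 genes, held none of the 4 motifs in this window.

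Library totals were 31378171 to 41919484 counts. VGF had 886, 941 and 1114 CPM (counts scaled to the library total and its TMM factor) in H1299 VGF libraries, against 77.2, 90.5 and 89.0 CPM with empty vector. It had 1361, 1201 and 1287 CPM in A549 VGF libraries, against 2.74, 2.54 and 2.02 CPM with empty vector, so every library matched its label. Summed over 6 epithelial markers, the level was 1013 to 1165 CPM in H1299, where CDH1 had 0 counts and KRT8 and KRT18 made up nearly all of it, and 6720 to 8820 CPM in A549. Summed over 10 fibroblast markers it was 1.505 to 2.63 CPM in H1299 and 24.5 to 38.9 CPM in A549, where COL1A1 had 703 to 943 counts per library. POSTN had 473 counts in A549 VGF library 2 and 0 to 6 in the other A549 libraries. A549 VGF library 2 stood apart: the summed level of 16 endothelial markers was 584 CPM there, against 91.6 and 97.0 CPM in the other A549 VGF libraries, 80.2 to 91.5 CPM in A549 with empty vector and 29.8 to 34.8 CPM in H1299. In that library PECAM1 and CDH5 had 3305 and 3387 counts there, against 19 to 61 and 0 to 21 in the other A549 libraries. Results that rest on it are given with and without it. In bulk RNA, fewer cells that express a gene and less of its RNA per cell cannot be told apart.

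**Figure D1:**
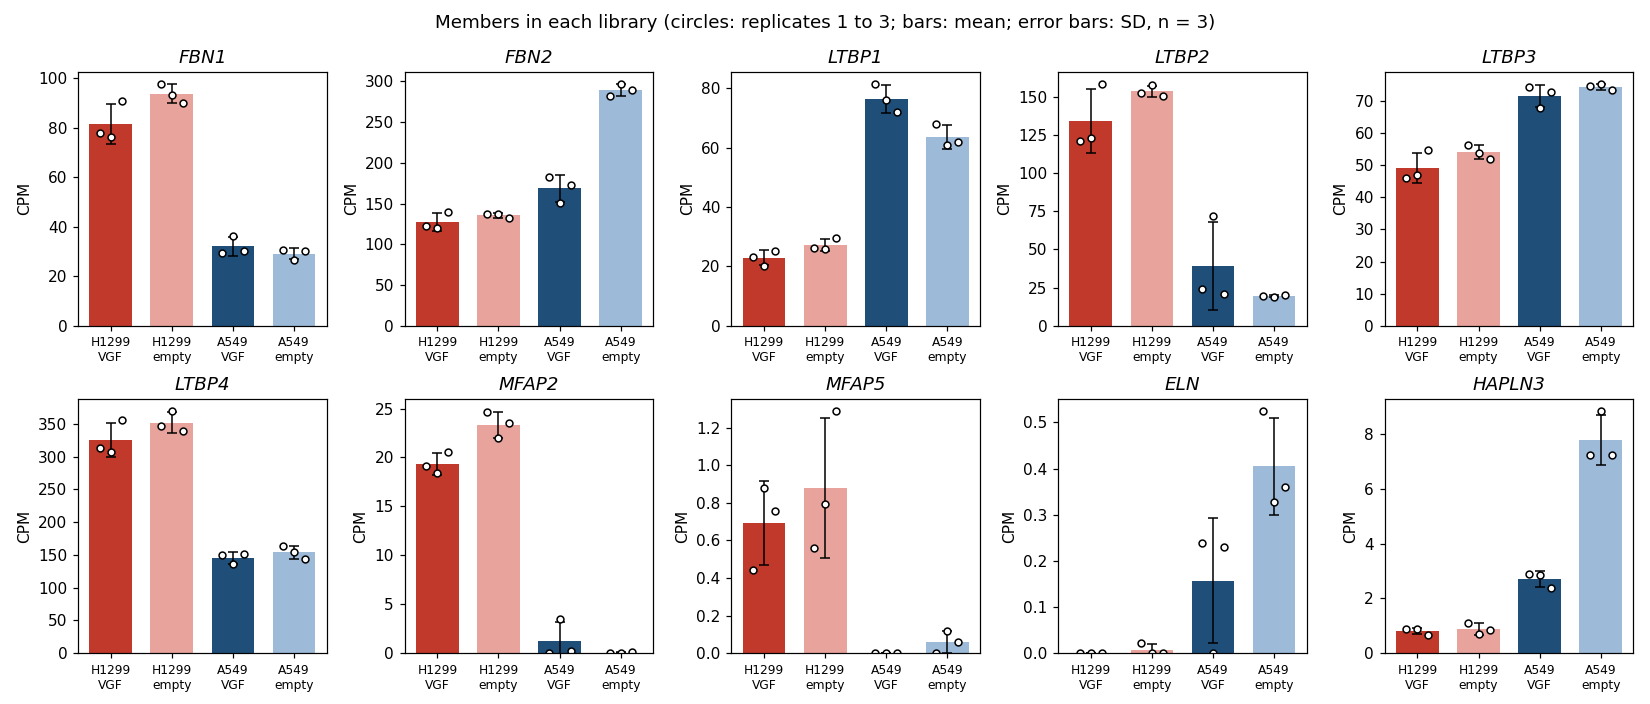
Level of each of the 10 genes in CPM on the vertical axis, with 1 circle per library, bars for the mean of 3 libraries and error bars for the SD. HAPLN3 and FBN2 stand highest in A549 with empty vector, LTBP4, LTBP2, FBN1 and MFAP2 stand higher in both H1299 groups than in A549, and in LTBP2 and MFAP2 a single A549 VGF library lies apart from the other two.

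The fibrillins differed in opposite directions between the lines. FBN1 (ENSG00000166147, GRCh38 chromosome 15, 48408306 to 48645849, minus strand), the main fibrillin of adult microfibrils, had 77.8, 76.2 and 90.8 CPM in H1299 VGF libraries, 97.8, 93.5 and 90.2 CPM in H1299 with empty vector, 29.5, 36.3 and 30.4 CPM in A549 VGF libraries and 30.8, 26.6 and 30.2 CPM in A549 with empty vector. FBN2 (ENSG00000138829, chromosome 5, 128257909 to 128659185, minus strand), a fibrillin known for its role in development, had 122, 120.3 and 140.1 CPM in H1299 VGF libraries, 138, 137 and 132 CPM in H1299 with empty vector, 183, 150.2 and 173 CPM in A549 VGF libraries and 282, 297 and 289.6 CPM in A549 with empty vector. For FBN1 every H1299 library was above every A549 library, and for FBN2 every A549 library was above every H1299 library. FBN1 was higher in H1299 than in A549 by 2.54-fold with VGF (log2 fold change 1.35, SE 0.0913, adjusted p = 1.83e-08 in edgeR's quasi-likelihood test) and by 3.21-fold with empty vector (1.68, SE 0.0920, adjusted p = 2.09e-09). FBN2 was lower in H1299 than in A549 with VGF (-0.40, SE 0.0723, adjusted p = 0.000215) and with empty vector (-1.09, SE 0.0725, adjusted p = 1.49e-08). These line comparisons share their A549 libraries with the values that chose FBN2.

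With VGF in A549, FBN2 averaged 169 ± 16.8 CPM, against 289 ± 7.37 CPM with empty vector (SD, n = 3), and the groups did not overlap, as for 18.4% of all features in A549. The log2 fold change was -0.78 (SE 0.0722), and -0.70 (SE 0.0619) without A549 VGF library 2, in which FBN2 was lowest. In H1299, whose libraries did not choose the gene, FBN2 averaged 128 ± 10.9 CPM with VGF and 136 ± 3.15 CPM with empty vector, and the groups overlapped. The log2 fold change there was -0.09 (SE 0.0721, 95% interval -0.24 to 0.07, adjusted p = 0.884 in edgeR's quasi-likelihood test). The difference between the lines was not tested, since the A549 values chose the gene. FBN1 in H1299 averaged 81.6 ± 7.97 CPM with VGF and 93.8 ± 3.80 CPM with empty vector. Its log2 fold change was -0.20 (SE 0.0875, adjusted p = 0.626 in edgeR's test), with 1 of 9 pairs of libraries higher with VGF. In A549 the FBN1 groups overlapped, with a log2 fold change of 0.14 (SE 0.0930), and 0.04 without VGF library 2.

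Among the LTBPs, LTBP2 and LTBP4 were higher in H1299 and LTBP1 and LTBP3 were higher in A549. LTBP1 (ENSG00000049323, chromosome 2, 32946972 to 33399509, plus strand), a carrier of latent TGF-beta, had 23.3, 20.2 and 25.3 CPM in H1299 VGF libraries, 26.1, 26.0 and 29.7 CPM in H1299 with empty vector, 81.4, 76.0 and 71.9 CPM in A549 VGF libraries and 68.1, 60.9 and 61.7 CPM in A549 with empty vector. The 4 groups did not overlap, the A549 VGF libraries being highest and the H1299 VGF libraries lowest. LTBP1 was lower in H1299 than in A549 with VGF (-1.73, SE 0.0877, adjusted p = 9.58e-10) and with empty vector (-1.22, SE 0.0865, adjusted p = 2.78e-08, edgeR's quasi-likelihood test for both). In H1299 its log2 fold change with VGF was -0.25 (SE 0.0877, adjusted p = 0.512 in edgeR's test), so that it was not called, although the groups did not overlap. In H1299 12.7% of all features did not overlap between VGF and empty vector, 7.07% being lower with VGF. In A549 its log2 fold change with VGF was 0.27 (SE 0.0840), and 0.27 (SE 0.0945) without VGF library 2. Of the exonic bases of LTBP1, 3.40% are shared with a gene on the opposite strand, and whether the authors counted by strand is not given in the sources used here.

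LTBP3 (ENSG00000168056, chromosome 11, 65538805 to 65558930, minus strand), another carrier of latent TGF-beta, had 46.0, 46.9 and 54.7 CPM in H1299 VGF libraries, 56.2, 53.9 and 51.9 CPM in H1299 with empty vector, 74.4, 67.9 and 72.7 CPM in A549 VGF libraries and 74.6, 75.1 and 73.4 CPM in A549 with empty vector. The VGF and empty vector groups overlapped within each line, and the lines did not overlap. Its log2 fold change of H1299 over A549 was -0.54 with VGF (SE 0.0665, adjusted p = 6.57e-06) and -0.46 with empty vector (SE 0.0662, adjusted p = 2.88e-05, edgeR's quasi-likelihood test for both). For VGF against empty vector it was -0.14 in H1299 (SE 0.0664, adjusted p = 0.657) and -0.05 in A549 (SE 0.0660).

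LTBP4 (ENSG00000090006, chromosome 19, 40592883 to 40629818, plus strand), known for its part in elastic fibre assembly in the lung, had the highest CPM of the 10 genes in H1299. It had 314, 306 and 355 CPM in H1299 VGF libraries, 347, 369.5 and 339 CPM in H1299 with empty vector, 149, 136 and 152 CPM in A549 VGF libraries and 163, 154 and 144 CPM in A549 with empty vector. Every H1299 library was above every A549 library, by 2.23-fold with VGF (log2 fold change 1.16, SE 0.0689, adjusted p = 4.78e-09) and 2.29-fold with empty vector (1.20, SE 0.0689, adjusted p = 3.54e-09, edgeR's quasi-likelihood test for both). VGF and empty vector overlapped in each line. The VGF log2 fold change was -0.11 in H1299 (SE 0.0676, 95% interval -0.26 to 0.03, adjusted p = 0.760) and -0.08 in A549 (SE 0.0686).

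LTBP2 (ENSG00000119681, chromosome 14, 74498170 to 74612378, minus strand) is the family member that does not bind latent TGF-beta. It had 121, 123 and 158 CPM in H1299 VGF libraries and 152, 158 and 150.5 CPM in H1299 with empty vector. It had 24.4, 72.2 and 21.0 CPM in A549 VGF libraries, against 19.3, 18.6 and 19.97 CPM with empty vector, and the 72.2 CPM came from the A549 library with endothelial transcripts. With that library the A549 log2 fold change was 1.03 (SE 0.354), and without it 0.23 (SE 0.111). The part of the endothelial transcripts in this value was not tested. LTBP2 was higher in H1299 than in A549 by 3.40-fold with VGF (1.77, SE 0.339, adjusted p = 0.000373), or 6.01-fold without A549 VGF library 2 (2.59, SE 0.113, adjusted p = 2.89e-10), and by 7.96-fold with empty vector (2.99, SE 0.361, adjusted p = 5.64e-06, edgeR's quasi-likelihood test for all 3). VGF and empty vector overlapped in H1299, where the log2 value was -0.19 (SE 0.323, adjusted p = 1). The SE of LTBP2 in the fit of 12 libraries was larger than that of any other LTBP, and the fit without A549 VGF library 2 gave it 0.0871 in H1299.

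The small microfibril-associated glycoproteins were detected mainly in H1299. MFAP2 (ENSG00000117122, chromosome 1, 16974502 to 16980835, minus strand), which binds fibrillin, had 776, 733 and 870 counts in H1299 VGF libraries and 1105, 969 and 966 in H1299 with empty vector. It had 1, 137 and 8 counts in A549 VGF libraries and 0, 0 and 3 in A549 with empty vector, and the 137 counts came from the library with endothelial transcripts. Its sum with empty vector was 3040 counts in H1299 and 3 in A549, a ratio of 788 after scaling to depth, with a 95% counting interval of 269 to 3821. With VGF the sums were 2379 counts in H1299 and 146 in A549, a ratio of 13.7 (11.6 to 16.3), or 138 (72.4 to 301) without A549 VGF library 2. The fitted log2 fold change with VGF was 3.87 (SE 0.744), and 7.10 (SE 0.394) without A549 VGF library 2. The line difference was called with VGF (adjusted p = 0.000376) and with empty vector (adjusted p = 9.95e-06) by edgeR's quasi-likelihood test, and without A549 VGF library 2 the adjusted p with VGF was 3.13e-09. MFAP2 passed the filter on low counts through H1299, where it is high, so these adjusted p are a description. In H1299, MFAP2 averaged 19.3 ± 1.08 CPM with VGF and 23.4 ± 1.33 CPM with empty vector (SD, n = 3), and the groups did not overlap. Of all features, 12.7% did not overlap in H1299, 7.07% being lower with VGF. The edgeR log2 fold change of MFAP2 there was -0.27 (SE 0.624, adjusted p = 1). Without A549 VGF library 2 in the fit, its SE was 0.194 and the adjusted p 0.809.

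MFAP5 (ENSG00000197614, chromosome 12, 8637346 to 8662888, minus strand), the second glycoprotein of this family, had 18, 35 and 32 counts in H1299 VGF libraries, 25, 35 and 53 in H1299 with empty vector, 0 in each A549 VGF library and 0, 4 and 2 in A549 with empty vector. With VGF, H1299 was 23.8-fold higher than A549, with A549 taken at 3 counts summed over its libraries, or 0.0291 CPM (95% counting lower limit 18.9, adjusted p = 0.000187 in edgeR's quasi-likelihood test). Without A549 VGF library 2 it was 14.8-fold higher at the same 3 counts (lower limit 11.7). With empty vector the ratio of H1299 to A549 was 14.6 (95% counting interval 6.52 to 40.7, adjusted p = 0.00138). ELN (ENSG00000049540, chromosome 7, 74027789 to 74069907, plus strand), the elastin precursor, was close to the limit of detection in every library. It had 0 counts in each H1299 VGF library, 1, 0 and 0 in H1299 with empty vector, 7, 0 and 8 in A549 VGF libraries and 18, 11 and 12 in A549 with empty vector. With VGF, ELN was 5.96-fold lower in H1299 than in A549, with H1299 taken at 3 counts, or 0.0244 CPM (95% counting lower limit 4.27, adjusted p = 0.0129), and 9.60-fold lower without A549 VGF library 2 (lower limit 6.89). With empty vector A549 had 52.8 times the scaled count of H1299 (95% counting interval 8.95 to 2134, adjusted p = 0.00481). Intervals and floors cover counting error only. MFAP5 passed the filter on low counts through H1299 and ELN through A549 with empty vector, the groups where they are high. Their adjusted p between the lines are therefore a description. The A549 sums for ELN were 15 counts with VGF and 41 with empty vector, a ratio of 0.359 (0.184 to 0.662), or 0.578 (0.297 to 1.07) without A549 VGF library 2, the one with 0. The fitted log2 fold change was -1.39 (SE 1.01), and -0.78 (SE 0.936) without that library. ELN shares 2.52% of its exonic bases with an antisense gene and MFAP5 1.68% with a gene on the opposite strand.

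HAPLN3 (ENSG00000140511, chromosome 15, 88877288 to 88895626, minus strand), the hyaluronan link protein, had 0.862, 0.878 and 0.660 CPM in H1299 VGF libraries, 1.09, 0.681 and 0.851 CPM in H1299 with empty vector, 2.91, 2.86 and 2.39 CPM in A549 VGF libraries and 7.25, 8.84 and 7.25 CPM in A549 with empty vector. A549 with empty vector stood above the other 3 groups, and the H1299 groups overlapped. In A549 the log2 fold change with VGF was -1.52 (SE 0.227), and -1.56 (SE 0.264) without VGF library 2. In H1299 it was -0.13 (SE 0.243, 95% interval -0.66 to 0.40, adjusted p = 1 in edgeR's quasi-likelihood test), on 28 to 49 counts per library. HAPLN3 was lower in H1299 than in A549 with VGF (-1.76, SE 0.240, adjusted p = 1.79e-05) and with empty vector (-3.15, SE 0.244, adjusted p = 7.15e-08), in comparisons that share A549 libraries with the values that chose it.

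With VGF in H1299, none of the 10 genes passed the test. All 10 passed the filter on low counts, and 0 were called by edgeR, limma voom or DESeq2, which gave MFAP2 no adjusted p, against 0.011% of all 18228 features called by edgeR in that comparison. The log2 fold changes of the 10 genes were negative in all 10, with a median of -0.20, against -0.01 over all features, and that of ELN rested on 1 count. In the fit of 12 libraries FBN1 and LTBP1, 2 of the 10, had an unadjusted p under 0.05, as had 1422 of all 18228 features. In 7 of the 10, H1299 VGF library 3 was the highest of its group, and for MFAP5 and HAPLN3 the sign turned when 1 H1299 library was left out, while ELN went to 0. In A549, FBN2 and HAPLN3 are the only members among the called features, which are 0.79% of the 18228 features tested. That count was fixed by the choice of genes. The other 8 members in A549 had log2 fold changes on both sides of 0, LTBP1, LTBP2, FBN1 and MFAP2 being positive and LTBP3, LTBP4, MFAP5 and ELN negative. The A549 and H1299 comparisons share no libraries.

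**Figure D2:**
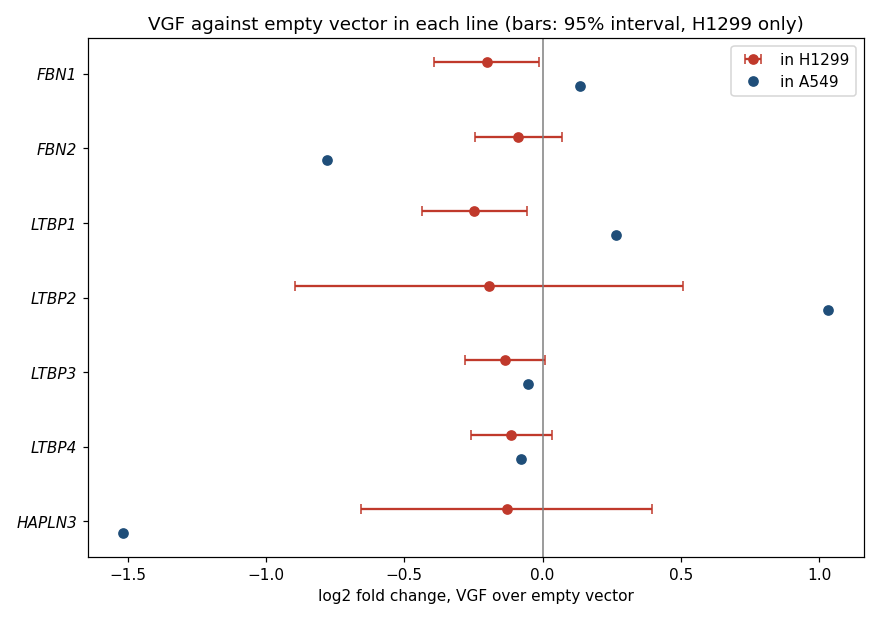
Log2 fold change of VGF over empty vector on the horizontal axis for the 7 genes other than MFAP2, MFAP5 and ELN, which were near 0 counts in at least 1 group, in H1299 with 95% intervals (red) and in A549 without intervals, since the A549 values chose FBN2 and HAPLN3 (blue). The H1299 points lie between -0.25 and -0.09, and the A549 points of FBN2 and HAPLN3 lie at -0.78 and -1.52.

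Between the lines all 10 genes were called with VGF and with empty vector, where 77.3% and 77.2% of all features were called. FBN2 and HAPLN3 were chosen on values of A549 libraries that these comparisons share. ELN passed the filter on low counts through A549 with empty vector, and MFAP2 and MFAP5 through H1299, the groups where they are high. The count of called members is therefore a description, as are the adjusted p of MFAP2, MFAP5 and ELN between the lines. FBN1, LTBP2, LTBP4, MFAP2 and MFAP5 were higher in H1299 and FBN2, LTBP1, LTBP3, ELN and HAPLN3 were lower, with the same direction under both vectors. With VGF, 38.2% of all features were called higher and 39.1% lower in H1299, and with empty vector 38.5% were called higher and 38.6% lower. The median over the 10 genes was 0.38 with VGF and 0.37 with empty vector, against -0.01 and 0.01 over all features, and it averages over changes of opposite sign. With VGF the libraries of the lines did not overlap in 9 of the 10 genes, ELN being the exception with 0 counts in A549 VGF library 2, and with empty vector in all 10. Of all features, 79.5% with VGF and 81% with empty vector did not overlap. A line difference was called for most features of the table.

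**Figure D3:**
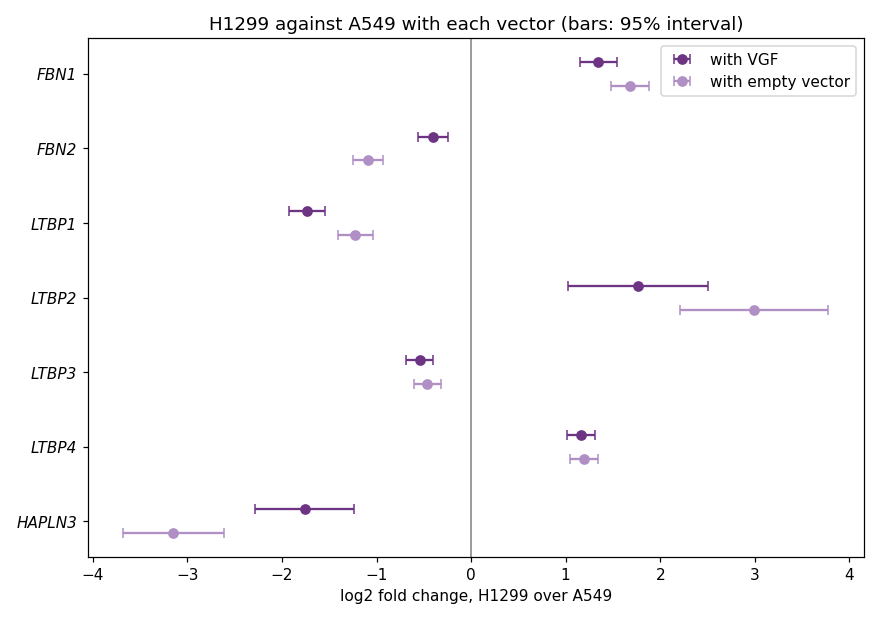
Log2 fold change of H1299 over A549 on the horizontal axis with 95% intervals, with VGF (dark) and with empty vector (light), for the 7 genes other than MFAP2, MFAP5 and ELN, which were near 0 counts in at least 1 group. FBN1, LTBP2 and LTBP4 lie to the right of 0 and FBN2, LTBP1, LTBP3 and HAPLN3 to the left under both vectors.

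Levels of different genes were compared per length, on the deposited FPKM (fragments scaled by feature length and library size). LTBP4 ranked first in all 4 groups, at 81.1 ± 3.82 FPKM in H1299 with VGF, 90.2 ± 5.45 in H1299 with empty vector, 26.3 ± 1.56 in A549 with VGF and 28.0 ± 1.48 in A549 with empty vector (SD, n = 3). In H1299 it was followed by LTBP2 and MFAP2, at 16.3 ± 2.26 and 15.6 ± 0.661 FPKM with VGF and 19.4 ± 1.13 and 19.0 ± 1.12 FPKM with empty vector, and these neighbours overlapped in both groups. LTBP3 and FBN2 came next in H1299 and overlapped too, at 12.7 ± 1.17 and 12.5 ± 0.831 FPKM with VGF and 13.9 ± 0.493 and 13.5 ± 0.420 FPKM with empty vector. FBN1 at 7.28 ± 0.682 and LTBP1 at 3.96 ± 0.488 FPKM with VGF followed, each apart from its neighbours.

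The order differed in A549. FBN2 was second there, at 15.1 ± 1.84 FPKM with VGF, where it overlapped LTBP3 at 14.99 ± 0.710, and at 26.1 ± 0.493 FPKM with empty vector, where it stood apart from LTBP3 at 16.1 ± 0.324. LTBP1 followed in both A549 groups, at 10.9 ± 0.739 FPKM with VGF and 9.19 ± 0.600 FPKM with empty vector. With empty vector, HAPLN3, FBN1 and LTBP2 followed at 2.37 ± 0.303, 2.24 ± 0.168 and 2.01 ± 0.0926 FPKM, and neighbours among them overlapped. With VGF, FBN1 at 2.42 ± 0.285 FPKM stood apart from HAPLN3 at 0.959 ± 0.0760 FPKM. By their means, MFAP2, ELN and MFAP5 stood last in A549 in both groups, but with VGF MFAP2 overlapped HAPLN3, with 2.42 FPKM in A549 VGF library 2.

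The FPKM of the 10 genes summed to 150.1 ± 6.03 in H1299 with VGF, 169.7 ± 7.27 in H1299 with empty vector, 75.5 ± 2.48 in A549 with VGF and 86.2 ± 1.17 in A549 with empty vector. LTBP4 made up 54.0% ± 2.68 of that sum in H1299 with VGF, 53.1% ± 1.05 in H1299 with empty vector, 34.8% ± 2.68 in A549 with VGF and 32.5% ± 1.28 in A549 with empty vector. The share of FBN2 was 8.35% ± 0.422 in H1299 with VGF, 7.96% ± 0.238 in H1299 with empty vector, 19.97% ± 2.502 in A549 with VGF and 30.3% ± 0.928 in A549 with empty vector. Every H1299 library had a higher share of LTBP4 and a lower share of FBN2 than every A549 library. The ratio of FBN2 to FBN1 was 1.73 ± 0.0466 in H1299 with VGF and 1.61 ± 0.0752 with empty vector. In A549 it was 6.34 ± 1.40 with VGF and 11.7 ± 1.07 with empty vector. These shares and ratios contain FBN2, whose A549 values chose it, and have no test.

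**Figure D4:**
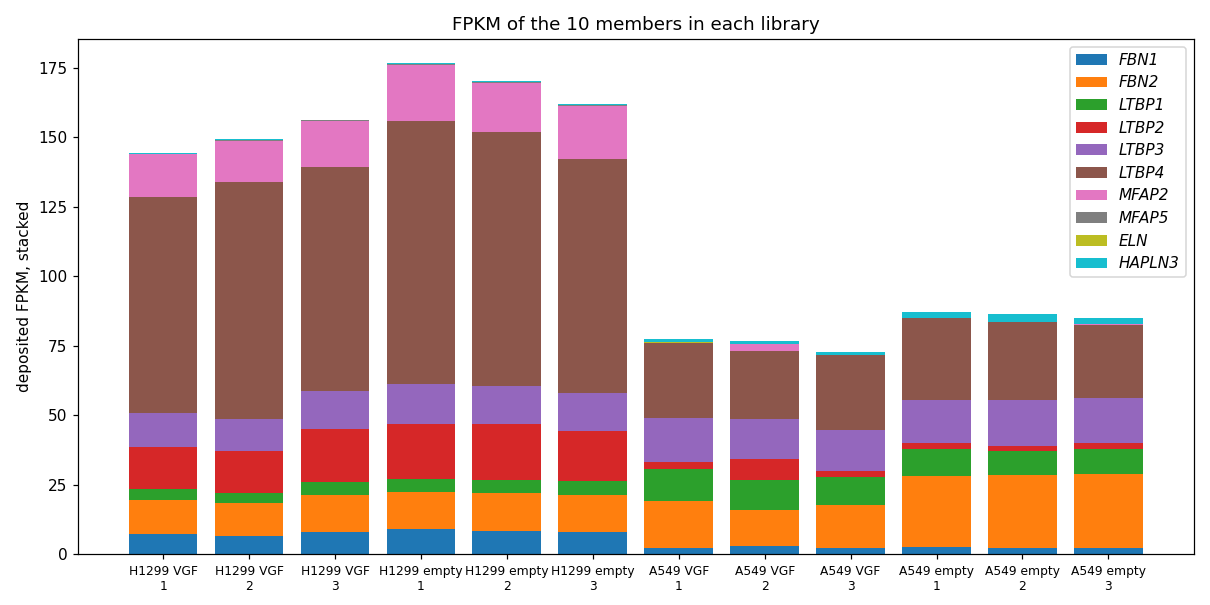
Deposited FPKM of the 10 genes stacked in each of the 12 libraries, 1 bar per library and 1 colour per gene. The brown LTBP4 segment takes 51.6 to 56.9% of the bar in the H1299 libraries and 31.2 to 37.2% in the A549 libraries, and the orange FBN2 segment is widest in A549 with empty vector.

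For LTBP4 the counts and the FPKM gave different distances between the lines. With empty vector its log2 fold change of H1299 over A549 was 1.20 by edgeR and 1.68 on FPKM with a pseudocount of 0.1. The median over all features moved as well, from 0.01 to 0.19, so that part of the gap is not particular to LTBP4. The counts were scaled with TMM factors and the FPKM were not. A length is implied by the count divided by the FPKM and the library size, and for LTBP4 it was 3873 to 4670 bases in the 6 H1299 libraries (median 4327) and 5067 to 5169 bases in the 6 A549 libraries (median 5133). The ratio of the medians was 0.843, and 1.11% of 7446 features with at least 500 counts in every library had a ratio at or below it. The median ratio over those features was 1.00, with 0.932 and 1.07 at the 5th and 95th percentile. For FBN2 the ratio was 1.06, and for FBN1, LTBP1, LTBP2 and LTBP3 it was 0.953 to 0.980. LTBP4 has 3 annotated full transcripts of 5032, 4948 and 4764 bases in GENCODE 29, which start at 40593166, 40597235 and 40601371 on chromosome 19. The first and the third of these starts lie next to the first and second promoter printed above. The implied lengths were below the shortest of these 3 transcripts in every H1299 library and above the longest in every A549 library. The library size in this calculation was the sum of the deposited counts, so the implied lengths need not be on the scale of annotated transcripts. Transcript counts were not analysed here, and which transcripts each line used was not tested. This comparison was chosen after the values were seen.

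**Figure D5:**
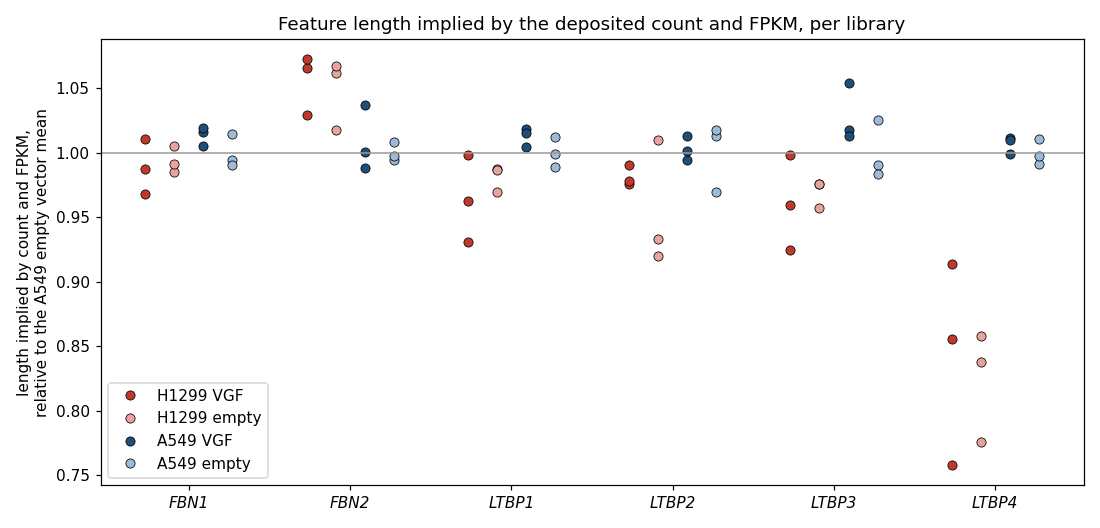
Length implied by the deposited count and FPKM in each library, relative to the mean of the A549 empty vector libraries, for the 6 genes with at least 500 counts in every library, 1 circle per library. The H1299 libraries of LTBP4 lie below every A549 library, while the other genes stay near 1.

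Of 27 genes besides the 10 that build or bind microfibrils and elastic fibres, 23 were tested. With VGF in H1299 0 of them were called by edgeR, voom or DESeq2, which called 2, 1 and 139 of all 18228 features. In edgeR 0 had an unadjusted p under 0.05, against 1422 of all 18228 features. In H1299 against A549, 11 were higher and 8 lower with VGF, and 11 higher and 7 lower with empty vector, where 77.3% of all features were called with VGF and 77.2% with empty vector. The list had a median log2 fold change of 0.53 with VGF and 0.73 with empty vector. The genes named next for the lines were picked by their smallest p in that comparison, so their adjusted p are a description. LOXL1 passed the filter on low counts through H1299 and ADAMTS10 through A549, where they are high. EMILIN2, an elastin interface protein, averaged 15.99 ± 1.27 CPM in H1299 and 2.20 ± 0.253 CPM in A549 with VGF (adjusted p = 1.13e-09). LOXL1, an enzyme that cross-links elastin, averaged 22.5 ± 4.08 CPM in H1299 and 0.172 ± 0.0575 CPM in A549 with VGF (adjusted p = 7.26e-09), and FBLN2, a fibulin, 13.4 ± 1.25 CPM in H1299 and 0.704 ± 0.178 CPM in A549 (adjusted p = 7.44e-08). ADAMTS10, a secreted metalloprotease that binds fibrillin, averaged 0.0393 ± 0.0681 CPM in H1299 and 40.8 ± 4.09 CPM in A549 (adjusted p = 2.07e-10). THSD4, which promotes fibrillin assembly, averaged 52.0 ± 2.56 CPM in H1299 and 248 ± 20.3 CPM in A549 (adjusted p = 2.81e-12), and the cross-linking enzyme LOXL2 111 ± 8.10 CPM in H1299 and 342 ± 16.5 CPM in A549 (adjusted p = 3.28e-10, n = 3 each, edgeR's quasi-likelihood test throughout). In A549, EFEMP1, a fibulin, had 24.5, 161 and 24.6 CPM with VGF, against 25.5, 27.8 and 32.4 CPM with empty vector. Its high value is that of the library with endothelial transcripts. ADAMTSL4, another fibrillin-binding protein, had 8.72, 5.27 and 6.13 CPM with VGF, against 9.05, 10.1 and 9.41 CPM with empty vector.

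Of 20 genes that store or release latent TGF-beta and related ligands, 19 were tested. With VGF in H1299, 0 were called by edgeR, voom or DESeq2, which called 2, 1 and 139 of all 18228 features. In edgeR 4 had an unadjusted p under 0.05, as had 1422 of all 18228 features. Between the lines, 2 were higher and 13 lower in H1299 with VGF, and 4 higher and 13 lower with empty vector, beside 38.2% and 39.1% of all features higher and lower with VGF and 38.5% and 38.6% with empty vector. The list had a median of -2.08 with VGF and -1.65 with empty vector. Genes named here for the lines were picked by their smallest p in that comparison, so their adjusted p are a description. TGFB2, a TGF-beta ligand, averaged 2.99 ± 0.505 CPM in H1299 and 61.8 ± 3.65 CPM in A549 with VGF (adjusted p = 3.15e-12). FN1, the fibronectin on which microfibrils assemble, averaged 53.3 ± 4.796 CPM in H1299 and 4871 ± 165 CPM in A549 (adjusted p = 1.43e-12), and ITGAV, a subunit of integrins that activate latent TGF-beta, 79.0 ± 4.59 CPM in H1299 and 573 ± 18.3 CPM in A549 (adjusted p = 4.23e-13). TGFB3 was higher in H1299, at 2.93 ± 0.283 CPM, against 0.551 ± 0.0868 CPM in A549 (adjusted p = 7.19e-06, n = 3 each). TGFB1 with VGF averaged 166 ± 16.8 CPM in H1299 and 144 ± 11.7 CPM in A549, and it was called although the groups overlapped (adjusted p = 0.0249, edgeR's quasi-likelihood test for all). BMP2 was called higher in H1299 with empty vector, at 2.77 ± 0.424 CPM, against 0.229 ± 0.149 CPM in A549 (adjusted p = 0.0139 in edgeR's test). In A549, ITGB3 had 3.97, 17.5 and 3.71 CPM with VGF, against 2.71, 3.40 and 2.68 CPM with empty vector, and THBS1 had 89.6, 615 and 104 CPM with VGF, against 131, 123 and 105 CPM with empty vector. The high value of both came from A549 VGF library 2.

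Of 15 genes of hyaluronan and its link proteins, 11 were tested. With VGF in H1299, edgeR and voom called 0 of them, and 1 had an unadjusted p under 0.05 in edgeR, as had 1422 of all 18228 features. DESeq2 called VCAN, a hyaluronan-binding proteoglycan, lower (log2 fold change -0.25, adjusted p = 0.0484, against -0.26 and 0.372 in edgeR). In that comparison DESeq2 called 139 of all 18228 features, 92 of them lower, and edgeR called 2. VCAN had 24.5, 24.3 and 24.0 CPM in H1299 VGF libraries, against 29.5, 32.0 and 25.7 CPM with empty vector, and the groups did not overlap. Of all features, 12.7% did not overlap in H1299, 7.07% being lower with VGF. Between the lines, 1 gene was higher and 8 lower in H1299 under each vector, beside the same shares of all features (77.3% called with VGF and 77.2% with empty vector). The list had medians of -4.64 with VGF and -4.49 with empty vector. Genes named here for the lines were picked by their smallest p in that comparison, so their adjusted p are a description. HAS2 passed the filter on low counts through A549, where it is high. VCAN averaged 24.2 ± 0.255 CPM in H1299 and 606 ± 30.2 CPM in A549 with VGF (adjusted p = 6.6e-14), and the hyaluronan synthase HAS3 averaged 1.30 ± 0.351 CPM in H1299 and 85.9 ± 5.58 CPM in A549 (adjusted p = 6.41e-11). The synthase HAS2 averaged 0.183 ± 0.190 CPM in H1299 and 11.8 ± 1.71 CPM in A549 with VGF (adjusted p = 1.62e-07). CD44, the hyaluronan receptor, averaged 547 ± 3.21 CPM in H1299 and 774 ± 12.2 CPM in A549 with empty vector (adjusted p = 8.16e-09). HMMR, another hyaluronan receptor, was the gene that was higher in H1299, at 133 ± 6.54 CPM, against 88.1 ± 4.12 CPM in A549 with VGF (adjusted p = 1.49e-06, n = 3 each, edgeR's quasi-likelihood test). In A549, BCAN averaged 9.32 ± 1.14 CPM with VGF and 11.2 ± 0.344 CPM with empty vector, and HAS3 85.9 ± 5.58 CPM with VGF and 102 ± 6.66 CPM with empty vector. As a description, edgeR called 1 gene of this list lower with VGF in A549 and 0 higher, where 0.79% of all features were called. It called 0 genes of the other lists there.

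Genes with a profile most like FBN2 and HAPLN3 were sought by Pearson's r of log2 CPM over the 12 libraries, which share their line and vector and fall into groups, so that r is a description. For FBN2 these were ABCA1 (r = 0.972), SHISA3 (r = 0.968) and FCGBP (r = 0.966). For HAPLN3 they were EHF (r = 0.986), ABCA1 (r = 0.984) and ALB (r = 0.978). ABCA1, a cholesterol exporter, averaged 13.5 CPM in H1299 with VGF, 14.7 in H1299 with empty vector, 20.6 in A549 with VGF and 34.4 in A549 with empty vector. FCGBP, a mucin-like secreted protein, averaged 40.1 CPM in H1299 with VGF, 36.9 in H1299 with empty vector, 68.2 in A549 with VGF and 123 in A549 with empty vector. EHF, an epithelial transcription factor, was at 0 counts in H1299 with VGF and averaged 0.0446 CPM in H1299 with empty vector, 0.909 CPM in A549 with VGF and 2.44 CPM in A549 with empty vector. Each of these genes stood highest in A549 with empty vector, as FBN2 and HAPLN3 did. The search by likeness brings this with it, so it is no separate result.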

How the data were processed

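Counts per feature were deposited by the authors as whole numbers, and FPKM values for the same features were deposited by the authors on a scale of feature length and library size. Per the submitters' processing notes the build was GRCh38 and DESeq2 was used. The sources used here do not give the aligner, the counting tool, the annotation or the use of strand. The tables held 26535 features, 19974 with an Ensembl ID, and 18 lines of stray text were left out. Gene coordinates are from GENCODE 29.

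Counts were fitted for all 12 libraries with 4 group means by edgeR 4.0.16 in R 4.3.3 (TMM, filterByExpr with a minimum count of 10, quasi-likelihood F test), with Benjamini-Hochberg adjustment over 18228 features and a threshold of 0.05. The fit had 8 residual degrees of freedom and 4.44 median prior degrees of freedom. It was also run on counts simulated from H1299 empty vector means, without a line difference, and the outcome is not given here. The standard error is the absolute log2 fold change over the root of F. For groups at 0, folds were taken against 3 counts summed over the group. DESeq2 1.42.0, limma 3.58.1 and other scalings, filters and FPKM pseudocounts of 1 and 0.1 were alternatives.

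Libraries were grouped by title and characteristics, since the treatment text of every library names the empty vector. The design text calls replicates biologically independent, and replicate counts differed beyond sampling noise (chi-square 7.82 to 21.8 per degree of freedom). The 10 genes, the gene lists and the tests were chosen with earlier results of these data known. The text names every member, VGF, of each list up to 3 called genes per direction and contrast by smallest p, in A549 the 2 list genes of at least 5 CPM with the largest change, and the 3 features most like FBN2 and HAPLN3.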

Additional observations from a re-analysis of the deposited data

Results flagged for a closer look

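LTBP1 had values of opposite sign with VGF in the lines. Its log2 fold change was -0.25 in H1299, where all 9 pairs of libraries were lower with VGF, and 0.27 in A549, where all 9 pairs were higher with VGF. The difference between the lines was not tested, and the H1299 change was not called. Groups that do not overlap were found for 12.7% of features in H1299 and 18.4% in A549.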

How the results depend on the processing

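The results were recomputed under 22 alternatives, 12 of which left out 1 library each. With VGF in H1299, 0 members were called in all 22. Between the lines, 8 to 10 members were called with VGF and with empty vector: a filter of 1 CPM removed MFAP5 and ELN, DESeq2 gave MFAP2 no adjusted p, and a fit of only the groups compared left ELN untested with VGF, with 9 called. No called member changed direction. ELN with VGF lost its call in limma voom (adjusted p = 0.0506) and on FPKM with a pseudocount of 1 (0.230) or 0.1 (0.0672). DESeq2 called 1 gene of the gene lists with VGF in H1299, VCAN, and the other alternatives called 0. Upper-quartile scaling moved the median of all features between the lines to 0.11, and FPKM with a pseudocount of 0.1 moved it to 0.19, without turning a member. Over the whole table, 43 to 729 features were called with VGF in A549, 144 by the edgeR fit, and 1 to 139 in H1299, where the edgeR fit called 2. Same-numbered libraries did not deviate together (r between -0.07 and 0.03). With the replicate number as a block, 0 members were called with VGF in H1299 and 10 in each line comparison, 0 list genes were called with VGF in H1299, and 43 features in A549 and 1 in H1299. MFAP2, MFAP5, ELN and HAPLN3 had under 60 counts in every library of at least 1 group, which limits the precision of their values.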
